A study of Mus musculus with 4 samples.

Results

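Socs1, Socs2, Socs3 and Cish encode suppressor of cytokine signalling (SOCS) proteins, and their transcripts were followed in single cells of mouse colon tumours. They are 4 of the 13518 genes in the expression table, taken by name, and all 4 were present. They were chosen by the level of Socs3, which had been seen to be higher in the library of ATT-I than in the others, so the levels between libraries are a description and carry no test. The tumours were MC38 (a mouse colon carcinoma line) implanted orthotopically in C57BL/6 mice, taken 2 weeks after the first treatment. The arms were the combination of both agents, ATT-I alone, anti-PD-1 alone and vehicle, an arm that another field of the labels calls untreated. ATT-I (Atractylenolide I, a plant sesquiterpene lactone) was dosed at 50 mg/kg every day, and the antibody against PD-1, an inhibitory receptor of T cells, 3 times weekly to a total of 5 doses. Each arm pooled 5 tumours into 1 droplet (10x Genomics) library, so there is no replicate, and arm and library cannot be told apart.

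Cytokine receptors signal through JAK kinases to STAT factors, which enter the nucleus and switch on target genes. SOCS genes are among those targets, and their proteins bind receptors or kinases and recruit a ubiquitin ligase, which closes a negative feedback loop. Socs1 inhibits JAK kinases and limits interferon-gamma and common gamma chain cytokine signals. Socs2 is best known for restraining growth hormone signalling. Socs3 binds gp130, the shared receptor subunit of interleukin-6 family cytokines, and limits STAT3 activation. Cish (CIS) is a STAT5 target that restrains interleukin-2 family and T cell receptor signals.

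STAT dimers recognise the palindrome TTCNNNGAA, and interferon-activated factors recognise repeats such as GAAANNGAAA, so promoters of the 4 genes (RefSeq, GRCm38.p6) were searched on both strands for these and for the wider TTCNNNNGAA. They are shown because response to STAT factors is what makes these genes feedback genes. Of the 4 genes, 3 matched the promoter table by symbol, and Socs2 is named only. Each line runs 5′ to 3′ along the gene from 250 bases before the transcription start to 30 bases after it, with motif matches in capitals.
Socs1, chr16:10785507-10785786, minus strand: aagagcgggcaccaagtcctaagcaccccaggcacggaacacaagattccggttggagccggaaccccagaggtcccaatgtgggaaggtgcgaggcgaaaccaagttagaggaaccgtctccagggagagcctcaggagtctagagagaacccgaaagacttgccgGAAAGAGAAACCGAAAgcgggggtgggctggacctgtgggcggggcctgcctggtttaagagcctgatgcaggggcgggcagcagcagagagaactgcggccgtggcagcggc
Socs3, chr11:117969337-117969616, minus strand: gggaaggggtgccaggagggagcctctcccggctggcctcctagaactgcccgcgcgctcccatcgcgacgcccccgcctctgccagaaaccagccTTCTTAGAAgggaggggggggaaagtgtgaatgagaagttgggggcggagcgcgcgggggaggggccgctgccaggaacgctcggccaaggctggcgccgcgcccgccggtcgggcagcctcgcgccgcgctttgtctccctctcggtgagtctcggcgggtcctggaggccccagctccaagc
Cish, chr9:107296409-107296688, plus strand: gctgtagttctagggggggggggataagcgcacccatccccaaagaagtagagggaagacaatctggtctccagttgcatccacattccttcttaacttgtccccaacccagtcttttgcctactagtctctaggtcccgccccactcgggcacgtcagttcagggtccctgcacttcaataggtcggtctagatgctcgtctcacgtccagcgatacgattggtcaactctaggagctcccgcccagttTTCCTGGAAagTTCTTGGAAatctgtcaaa
The Socs3 promoter held TTCTTAGAA, 154 to 146 bases before the start. Cish held TTCCTGGAA at bases 1 to 9 and TTCTTGGAA at bases 12 to 20 of the transcript. Socs1 held no TTCNNNGAA in the searched window, which ends 50 bases after the start, but it held 2 overlapping GAAANNGAAA matches, 83 to 74 and 77 to 68 bases before the start. No TTCNNNNGAA was found in these windows. Of 32851 promoters of the same length, 8.30% held TTCNNNGAA and 0.457% held 2 or more. TTCNNNNGAA was in 6.95%, GAAANNGAAA in 3.44%, and 2 or more GAAANNGAAA in 0.225%. Positions count from the RefSeq starts. In the GENCODE annotation the Socs3 and Cish genes begin further upstream, at chr11:117970047 and chr9:107296026, outside the printed windows. The positions given for these genes thus depend on the annotation. These matches describe letters and not binding.

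The table held 199 combination, 297 ATT-I, 12562 anti-PD-1 and 155 vehicle cells, with medians of 23910, 6826, 7146.5 and 16118 UMIs (unique molecular identifiers, each standing for 1 captured transcript). A level is a gene's summed UMIs per 10000 summed UMIs of the cells named. Bracketed 95% intervals are exact and cover counting error only, not the spread between mice. Levels are compared between libraries or cells for 1 gene at a time. In a library, fewer cells with a transcript and less of it per cell both lower the level. Cells were gated by transcripts as CD8 (Cd8a and Cd8b1), regulatory CD4 (Cd4 with Foxp3) or conventional CD4 (Cd4 without Foxp3), and as cycling where they had a UMI of the proliferation marker Mki67. The T cell marker Cd3e was found in 89.1% to 100% of cells of these gates. Ungated cells were mixed, and in vehicle the NK cell marker Ncr1 was found in 59.4% of them and Cd3e in 46.9%. Cycling cells were 74.9% of the combination library, 28.3% of ATT-I, 32.3% of anti-PD-1 and 67.1% of vehicle. These gates depend on depth: median cycling cells of the libraries held 27755, 15323.5, 10808.5 and 21837.5 UMIs, and median non-cycling cells 11835.5, 5484, 6270 and 8105.

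Socs3 was higher in each treated library than in vehicle, and with all deposited cells counted it was the only one of the 4 genes past a 2-fold difference, while Socs2 was past it too under 3 alternative treatments of the cells. Its level was 0.283 [0.239 to 0.332] in the combination, 0.452 [0.377 to 0.536] in ATT-I, 0.296 [0.286 to 0.307] in anti-PD-1 and 0.0968 [0.0653 to 0.138] in vehicle. These levels rest on 148, 130, 3217 and 30 UMIs. ATT-I was highest, the combination and anti-PD-1 lay close together with overlapping intervals, and vehicle lay below the other 3. Against vehicle the ratio was 2.92-fold in the combination (log2 1.55 [0.97 to 2.16]), 4.67-fold in ATT-I (log2 2.22 [1.64 to 2.85]) and 3.06-fold in anti-PD-1 (log2 1.61 [1.10 to 2.18]). The combination stood at log2 -0.68 [-1.02 to -0.32] against ATT-I and at -0.07 [-0.31 to 0.17] against anti-PD-1. The 3 ratios to vehicle share its 30 UMIs. In vehicle, 21 cells in which the deposited scaling hides genes with 1 UMI held 32.5% of its UMIs and 3 of those 30. Without such cells in any library, the ratios were log2 1.41 in the combination, 1.81 in ATT-I and 1.21 in anti-PD-1.

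Few genes had a higher ratio to vehicle than Socs3: 25 of 8853 in the combination library, 11 of 8484 in that of ATT-I and 10 of 8475 in that of anti-PD-1, among genes with a UMI in 10% of the cells of either library. Socs3 was chosen for its ATT-I level, so its rank there follows from that choice. The other ranks share the same vehicle UMIs, and none of them is evidence. Genes at least 2-fold higher than vehicle were 1.23%, 0.967% and 1.44% of those compared in these libraries, and genes at least 2-fold lower 3.82%, 8.82% and 11.9%. All 4 SOCS genes could be compared each time, and 1 of 4 was past 2-fold. The median of all genes lay at log2 -0.07, -0.22 and -0.24 in the same order. In the combination against anti-PD-1, 8.38% of genes were at least 2-fold higher and 2.56% lower, and against ATT-I 6.55% and 2.46%. With all deposited cells counted, none of the 4 SOCS genes was past 2-fold in those comparisons. Under some alternatives Socs2 was past it against anti-PD-1, such as log2 -1.13 with equal weight for each gate. In cells without any other cell marker it stood at -1.28.

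Socs1, Socs2 and Cish lay closer together across the libraries. Socs1 had a level of 0.625 [0.559 to 0.696] in the combination, 0.726 [0.631 to 0.832] in ATT-I, 0.792 [0.775 to 0.809] in anti-PD-1 and 0.716 [0.625 to 0.817] in vehicle. Neighbours in the order of its levels had overlapping intervals, and its lowest library, the combination, stood at log2 -0.34 [-0.51 to -0.18] against its highest, anti-PD-1. That ratio was -0.0798 without the cells in which the deposited scaling hides genes with 1 UMI, which hold 35.2% of the combination's and 1.36% of the anti-PD-1 UMIs. Cish was highest in vehicle, with 1.08 [0.996 to 1.18] in the combination, 0.983 [0.872 to 1.10] in ATT-I, 1.06 [1.04 to 1.08] in anti-PD-1 and 1.23 [1.11 to 1.36] in vehicle. Its ratio to vehicle was log2 -0.18 [-0.37 to 0.01], -0.32 [-0.55 to -0.10] and -0.22 [-0.37 to -0.07] in the 3 treated libraries, near the median of all genes in ATT-I and anti-PD-1. Socs2 was highest in anti-PD-1, with 0.183 [0.149 to 0.224] in the combination, 0.254 [0.199 to 0.319] in ATT-I, 0.335 [0.324 to 0.346] in anti-PD-1 and 0.200 [0.153 to 0.256] in vehicle. The intervals of the other 3 libraries overlapped. For Socs2 the combination stood at log2 -0.87 [-1.18 to -0.57] against anti-PD-1, and at -0.34 without the cells with hidden UMIs. Thinned to 3000 UMIs a cell, Socs2 too was past 2-fold against vehicle, at log2 1.10 in ATT-I and 1.21 in anti-PD-1. In cells with no UMI of a marker of another cell type, haemoglobin aside, it stood at log2 2.001 in ATT-I and 1.69 in anti-PD-1, where Socs3 stood at 1.86 and 1.38.

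**Figure D1:**
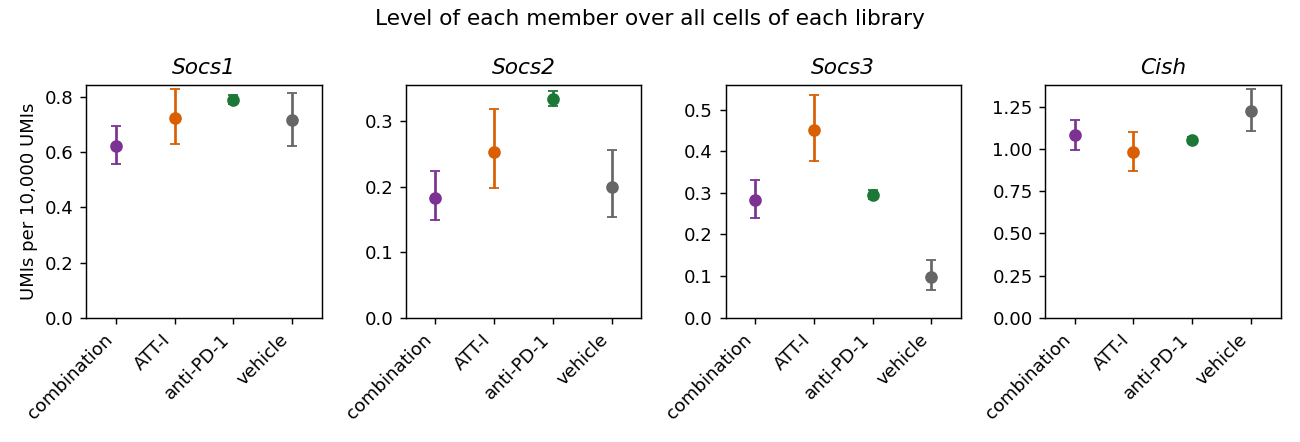
Level of Socs1, Socs2, Socs3 and Cish (UMIs per 10000 UMIs, y axis) in all cells of the combination, ATT-I, anti-PD-1 and vehicle libraries; points are single libraries and bars exact 95% counting intervals. Socs3 is lowest in vehicle, at 0.0968, and highest in ATT-I, at 0.452, while Socs1 and Cish differ little between libraries.

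**Figure D2:**
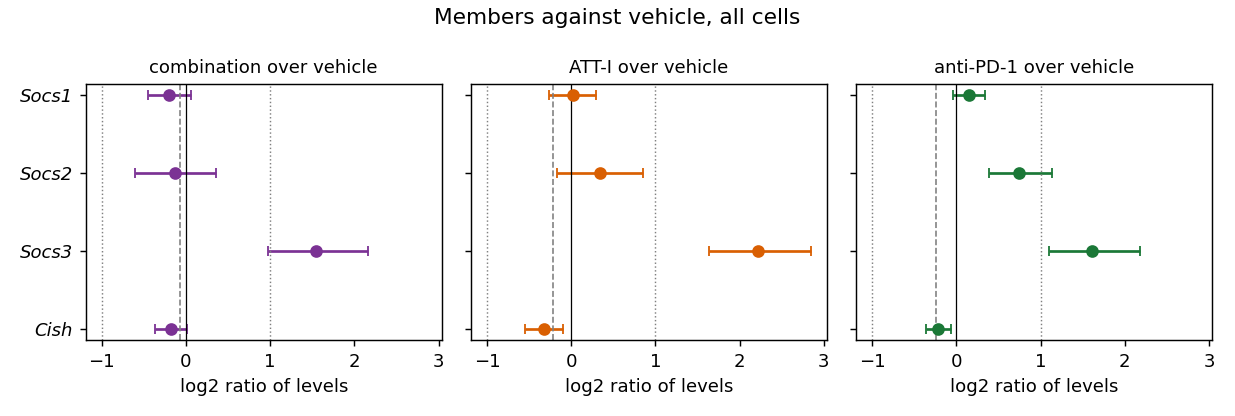
Log2 ratio of each gene's level to vehicle (x axis) in the combination, ATT-I and anti-PD-1 libraries, with exact 95% counting intervals; the dashed line is the median of all genes compared and the dotted lines mark 2-fold. With all cells counted, Socs3 alone lies past 2-fold, at 1.55 in the combination, 2.22 in ATT-I and 1.61 in anti-PD-1.

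More cells had the Socs3 transcript in the treated libraries. A Socs3 UMI was found in 68 combination cells, 73 ATT-I cells, 2067 anti-PD-1 cells and 13 vehicle cells, or 34.2%, 24.6%, 16.5% and 8.39% of each library. Thinned to 3000 UMIs a cell, which sets the libraries to 1 depth, the shares were 10.3%, 12.6%, 8.76% and 3.92%. Thinning does not restore the genes with 1 UMI that the deposited scaling hides. Those are hidden in 37 combination, 0 ATT-I, 37 anti-PD-1 and 21 vehicle cells, so the thinned shares are not fully on 1 footing. Thinning left out 5, 20, 484 and 2 shallower cells. Vehicle was lowest both ways, while the combination and ATT-I changed places. The cell richest in Socs3 held 13 UMIs in the combination, 10 in ATT-I, 15 in anti-PD-1 and 6 in vehicle, which is 8.78%, 7.69%, 0.466% and 20% of the libraries' Socs3 UMIs.

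The other genes differed less in their thinned shares, which were 26.8%, 26.7%, 27.3% and 32.0% for Cish and 18.0%, 24.2%, 21.7% and 22.9% for Socs1 in the same order of libraries. Socs2 was found in 3.61%, 8.30%, 9.48% and 4.58% of thinned cells. Unthinned shares were 71.9%, 46.8%, 50.1% and 76.1% for Cish, 60.3%, 43.8%, 41.3% and 60.6% for Socs1 and 20.1%, 17.5%, 19.5% and 19.4% for Socs2. No cell type that should lack these transcripts was at hand to measure free RNA. Cd8a had a UMI in 28.0% of conventional CD4 cells of the anti-PD-1 library (median 5521 UMIs), against 97.8% of its CD8 cells (median 7920 UMIs). Among conventional CD4 cells of the other libraries it had a UMI in 10% of the 40 combination cells (median 12422 UMIs), in 3.26% of the 92 ATT-I cells (median 5567) and in 14.5% of the 55 vehicle cells (median 7673). The gates themselves use Cd8a, Cd8b1 and Cd4 UMIs, which fixes part of these shares, and the libraries differ in depth. The shares are therefore no measure of free RNA. Doublets, which were not called, would also give Cd8a UMIs in CD4 cells.

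Higher Socs3 was present in CD8 and in conventional CD4 cells. In CD8 cells its level was 0.256 [0.207 to 0.313] in the combination, 0.354 [0.259 to 0.473] in ATT-I, 0.227 [0.217 to 0.238] in anti-PD-1 and 0.0789 [0.0378 to 0.145] in vehicle. In conventional CD4 cells it was 0.589 [0.414 to 0.811] in the combination, 0.614 [0.449 to 0.819] in ATT-I, 0.483 [0.437 to 0.533] in anti-PD-1 and 0.117 [0.0469 to 0.241] in vehicle. Vehicle was lowest in both gates and its interval met none of the others. Both gates pool cycling and non-cycling cells in unlike shares. Of CD8 cells, 109 of 121 were cycling in the combination, 43 of 108 in ATT-I, 3096 of 8791 in anti-PD-1 and 45 of 49 in vehicle. Among cycling CD8 cells alone the ATT-I and vehicle intervals overlapped. Ratios to vehicle were log2 1.70 [0.76 to 2.81], 2.17 [1.16 to 3.32] and 1.53 [0.64 to 2.59] in CD8 cells for the combination, ATT-I and anti-PD-1. In conventional CD4 cells they were 2.33 [1.15 to 3.74], 2.39 [1.24 to 3.79] and 2.05 [0.99 to 3.37]. Regulatory CD4 cells had few Socs3 UMIs, 8, 7, 158 and 1 in the 4 libraries, at levels of 0.116, 0.282, 0.327 and 0.0270. In these regulatory cells the combination stood at log2 -1.49 [-2.73 to -0.48] against anti-PD-1.

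Socs2 was lower in the combination than in anti-PD-1 in each T cell gate. The log2 ratio was -0.75 [-1.17 to -0.36] in CD8 cells, -1.28 [-2.10 to -0.57] in conventional CD4 cells and -1.10 [-1.72 to -0.54] in regulatory cells, with 53, 16 and 27 Socs2 UMIs in the combination. Socs1 in the same regulatory cells stood at -0.75 [-1.23 to -0.31]. Over all cells, leaving out the cells with hidden UMIs moved this contrast from log2 -0.87 to -0.34 for Socs2. For Socs1 it moved from -0.34 to -0.0798. That alternative was not run within gates, so the gate ratios carry the same limit. In conventional CD4 cells Socs1 was 1.02, 0.908, 1.07 and 0.700 in the combination, ATT-I, anti-PD-1 and vehicle, lowest in vehicle. Cish in conventional CD4 cells was 2.21, 1.60, 1.85 and 2.22, highest in vehicle.

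Because the libraries differ in their share of cycling cells, Socs3 was also read on each side of that gate. Among cycling cells its level was 0.259 [0.214 to 0.310] in the combination, 0.148 [0.0914 to 0.226] in ATT-I, 0.177 [0.165 to 0.189] in anti-PD-1 and 0.0693 [0.0404 to 0.111] in vehicle. The combination was highest there, and the ATT-I and vehicle intervals overlapped. Among non-cycling cells it was 0.457 [0.306 to 0.656] in the combination, 0.749 [0.615 to 0.903] in ATT-I, 0.396 [0.380 to 0.412] in anti-PD-1 and 0.201 [0.107 to 0.343] in vehicle. There ATT-I was highest. The ATT-I ratio to vehicle was log2 1.09 [0.10 to 2.10] in cycling cells, from 21 and 17 UMIs, and 1.90 [1.07 to 2.85] in non-cycling cells, from 109 and 13 UMIs. The combination against ATT-I stood at log2 0.81 [0.13 to 1.55] in cycling and -0.71 [-1.36 to -0.11] in non-cycling cells, on opposite sides of 0.

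**Figure D3:**
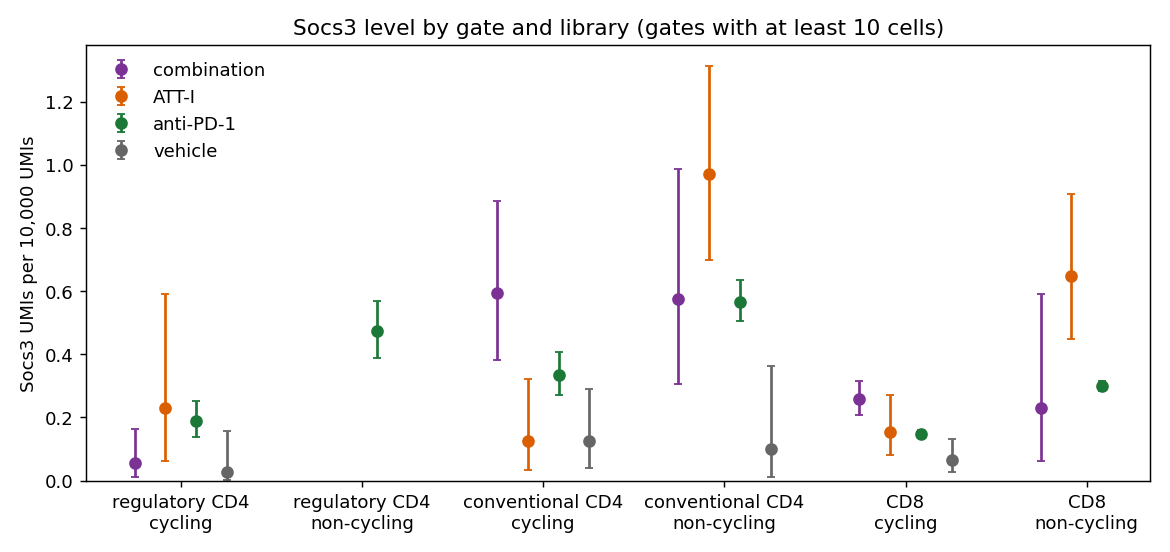
Socs3 level (UMIs per 10000 UMIs, y axis) by T cell gate (x axis) in the combination, ATT-I, anti-PD-1 and vehicle libraries, with exact 95% counting intervals, for gates of 10 or more cells. ATT-I reaches 0.971 in non-cycling conventional CD4 cells, against 0.1004 in vehicle.

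Within the T cell gates, ATT-I had its highest Socs3 in non-cycling conventional CD4 cells. There the level was 0.577 [0.307 to 0.986] in the combination (13 UMIs in 21 cells), 0.971 [0.700 to 1.31] in ATT-I (42 in 75), 0.567 [0.504 to 0.635] in anti-PD-1 (298 in 919) and 0.1004 [0.0122 to 0.363] in vehicle (2 in 29). Non-cycling CD8 cells stood at 0.231 [0.0630 to 0.592] in the combination, 0.650 [0.450 to 0.908] in ATT-I and 0.300 [0.283 to 0.316] in anti-PD-1, and vehicle had only 4 such cells. ATT-I thus had the highest value in both of these gates, where its interval overlapped that of the combination. In non-cycling regulatory cells anti-PD-1 was higher, at 0.473 against 0.404 in ATT-I, the latter from 3 UMIs in 9 cells.

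Cycling gates did not share that order. Cycling CD8 cells had Socs3 at 0.257 [0.207 to 0.316] in the combination, 0.155 [0.0800 to 0.271] in ATT-I, 0.148 [0.137 to 0.161] in anti-PD-1 and 0.0665 [0.0287 to 0.131] in vehicle. Cycling conventional CD4 cells had 0.595 [0.381 to 0.886] in the combination, 0.126 [0.0344 to 0.323] in ATT-I, 0.334 [0.272 to 0.407] in anti-PD-1 and 0.125 [0.0405 to 0.291] in vehicle. The combination was highest in both, and the ATT-I and vehicle intervals overlapped in both. In cycling regulatory cells the combination was not highest, with 0.0561 [0.0116 to 0.164] in the combination, 0.230 [0.0628 to 0.590] in ATT-I, 0.189 [0.139 to 0.252] in anti-PD-1 and 0.0282 [0.000713 to 0.157] in vehicle, from 3, 4, 47 and 1 UMIs.

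Other transcripts moved between the libraries beside Socs3. The 9 genes of resting T cells (such as Klf2 and Ccr7), all found in each library, had a summed level of 4.46, 8.70, 4.94 and 4.39 in the combination, ATT-I, anti-PD-1 and vehicle. Thinned cells with a UMI of a resting gene had Socs3 at 0.436 [0.238 to 0.732], 0.801 [0.595 to 1.06], 0.534 [0.503 to 0.566] and 0.194 [0.0629 to 0.452]. Thinned cells without one had 0.268, 0.0966, 0.176 and 0.0498, from 7, 2, 269 and 1 UMIs, too few to tell ATT-I from vehicle. ATT-I was the highest library among cells with a resting-gene UMI, and not among those without one. The part of these genes in the library difference was not tested beyond that split.

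The 16 stress genes (such as Fos, Jun and Hspa8), all found in each library, summed to 92.2, 82.2, 68.3 and 65.1 in the same order. In cells at or under the vehicle median of these genes, Socs3 stood at 0.198 [0.124 to 0.300], 0.365 [0.259 to 0.502], 0.196 [0.185 to 0.207] and 0.104 [0.0619 to 0.165]. In cells above it, Socs3 stood at 0.306 [0.255 to 0.364], 0.5004 [0.403 to 0.614], 0.435 [0.416 to 0.455] and 0.0872 [0.0451 to 0.152]. Vehicle was lowest on each side, and its interval overlapped that of the combination in the cells at or under the median. In those cells the ratio to vehicle was below 2-fold in the combination, at log2 0.92, and in anti-PD-1, at 0.91. The part of the stress genes in the result was not tested beyond that split.

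Markers of other cell types were highest in ATT-I for red cells, fibroblasts and epithelium. Haemoglobin transcripts, all 4 found in each library, summed to 0.0268, 53.8, 0.738 and 0.0581. Fibroblast markers (7 genes) summed to 0.0248, 0.976, 0.262 and 0.0452, with Col1a2 and Lum at 0 in the combination and Col1a1, Col1a2 and Lum at 0 in vehicle. Epithelial tumour markers (6 of 8 in the table) summed to 0.0669, 1.53, 0.183 and 0.268, with Krt19 and Cldn7 at 0 in the combination and Krt8 at 0 in vehicle. Monocyte and macrophage markers (6 of 9 in the table) summed to 0.107, 0.0869, 0.312 and 0.142, with C1qa and C1qc at 0 in ATT-I and Cd14 at 0 in vehicle. NK cell markers (6 genes) summed to 2.33, 3.72, 4.32 and 7.66, with Klra8 at 0 in the combination. In cells with no UMI of a marker of another cell type, haemoglobin aside, Socs3 stood at 0.346 [0.277 to 0.427], 0.406 [0.276 to 0.576], 0.290 [0.276 to 0.305] and 0.112 [0.0557 to 0.200]. Those are 94, 108, 6351 and 58 cells, and vehicle was lowest there too. Socs2 in the same cells stood at 0.135 [0.0936 to 0.189], 0.406 [0.276 to 0.576], 0.326 [0.311 to 0.342] and 0.101 [0.0487 to 0.187], from 34, 31, 1655 and 10 UMIs. Its ATT-I ratio to vehicle was thus larger there than over all cells, where it was log2 0.34. Every ATT-I cell held a UMI of one of these markers once haemoglobin was counted, and the part of haemoglobin in the ATT-I level was not tested.

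The anti-PD-1 library, with 12562 cells, allowed the 4 genes to be placed among T cell types. Each was lower in cycling than in non-cycling cells of the same gate, and lower in CD8 than in conventional CD4 cells of the same cycling state. Cish stood at 2.12 [1.94 to 2.32] in non-cycling regulatory cells, 1.98 [1.86 to 2.11] in conventional CD4 cells and 1.02 [0.993 to 1.05] in CD8 cells. In cycling cells of these gates it stood at 1.39 [1.25 to 1.55], 1.62 [1.48 to 1.78] and 0.747 [0.720 to 0.774]. Regulatory and conventional non-cycling cells overlapped for Cish, with a log2 ratio of 0.10 [-0.06 to 0.25]. Socs1 followed the same order in non-cycling cells, with 1.26 in regulatory, 1.16 in conventional CD4 and 0.827 in CD8 cells. With any UMI of 1 coreceptor as the gate, regulatory over conventional non-cycling cells turned to log2 -0.12 for Cish and -0.12 for Socs1. Socs1 levels in the cycling cells of these gates were 0.955, 0.922 and 0.525.

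Socs2 separated the T cell types most widely. It stood at 1.02 [0.898 to 1.16] in non-cycling regulatory cells, 0.681 [0.612 to 0.755] in conventional CD4 cells and 0.258 [0.243 to 0.274] in CD8 cells. In cycling cells of these gates it stood at 0.669 [0.571 to 0.779], 0.510 [0.432 to 0.598] and 0.222 [0.207 to 0.237]. The ratio of regulatory to CD8 non-cycling cells was log2 1.99 [1.78 to 2.19] for Socs2, against 1.05 [0.92 to 1.19] for Cish, 0.66 [0.37 to 0.94] for Socs3 and 0.60 [0.43 to 0.78] for Socs1. Regulatory over conventional non-cycling cells came to log2 0.59 [0.35 to 0.83] for Socs2, the only one of the 4 genes whose interval lay above 0 there.

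Among the T cell gates, Socs3 had its highest level in conventional CD4 cells on both sides of the cycling gate. The mixed ungated cells stood at 0.761 when non-cycling, above every T cell gate, and at 0.322 when cycling. Under these gates Cish was highest in conventional CD4 cells among cycling cells only, at log2 -0.22 [-0.42 to -0.02] for regulatory over conventional cells. Socs3 stood at 0.473 [0.389 to 0.570] in non-cycling regulatory cells, 0.567 [0.504 to 0.635] in conventional CD4 cells and 0.300 [0.283 to 0.316] in CD8 cells. In cycling cells of these gates it stood at 0.189 [0.139 to 0.252], 0.334 [0.272 to 0.407] and 0.148 [0.137 to 0.161]. Regulatory and conventional cells overlapped when non-cycling, at log2 -0.26 [-0.59 to 0.06], and differed when cycling, at -0.82 [-1.35 to -0.30]. Cycling over non-cycling cells came to log2 -1.32 [-1.85 to -0.82] in regulatory, -0.76 [-1.11 to -0.43] in conventional CD4 and -1.01 [-1.16 to -0.87] in CD8 cells. The same ratios were -0.40, -0.33 and -0.66 for Socs1, -0.61, -0.42 and -0.22 for Socs2, and -0.61, -0.29 and -0.45 for Cish.

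**Figure D4:**
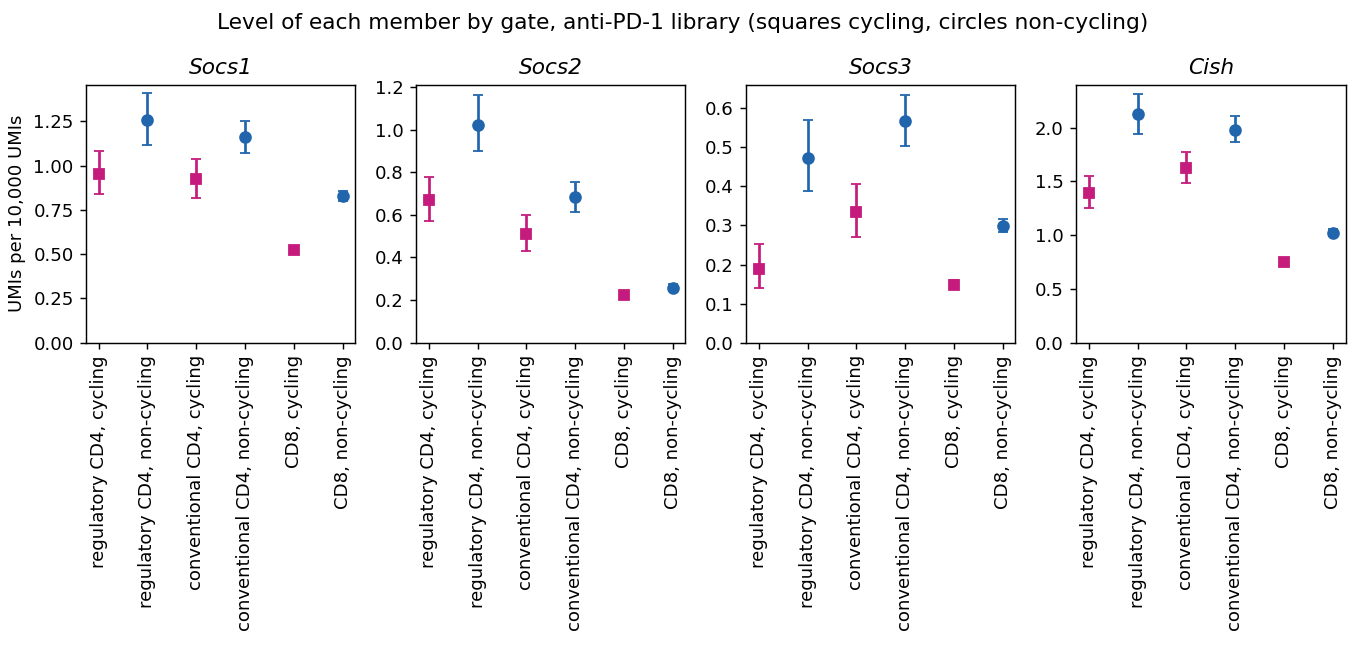
Level of each gene (UMIs per 10000 UMIs, y axis, with its own scale for each gene) in cycling (squares) and non-cycling cells (circles) of 3 T cell gates of the anti-PD-1 library (x axis), with exact 95% counting intervals. Each gene is lower in cycling cells of every gate, Socs2 peaks in non-cycling regulatory cells at 1.02, and Socs3 in non-cycling conventional CD4 cells at 0.567.

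The pathway genes nearest in role to the 4 were placed in the same gates, a choice made after their values were seen. Their levels are given for non-cycling regulatory, conventional CD4 and CD8 cells of the anti-PD-1 library. Il2ra, the high-affinity interleukin-2 receptor chain, stood at 2.47, 0.723 and 0.271. Il7r, the interleukin-7 receptor, stood at 3.26, 3.00 and 0.862, and Pim1, a STAT5 target kinase, at 6.53, 3.11 and 1.38. These 3 were highest in regulatory cells of these gates, and so was Socs2. Socs1 and Cish were highest there by level only. Their log2 ratios of regulatory over conventional cells were 0.12 [-0.09 to 0.32] and 0.10 [-0.06 to 0.25]. Both ratios turned negative with any UMI of 1 coreceptor as the gate. Ungated non-cycling cells had Socs1 at 1.33, above the 1.26 of regulatory cells. Il6ra, the interleukin-6 receptor, stood at 0.0768, 0.166 and 0.0392, and Stat3 at 1.72, 2.09 and 1.59. Both were highest in conventional CD4 cells. Since the genes were chosen with these values seen, their order is a description and links none of them to 1 of the 4.

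Within 1 gate of the anti-PD-1 library, cells with a UMI of a SOCS gene were set beside cells without one, after thinning to 3000 UMIs. Cells of 1 library share their source, so these ratios are descriptions. Socs3-positive CD8 and conventional CD4 cells carried more resting-cell transcripts. In non-cycling CD8 cells the resting T cell genes summed to 10.6 in 450 Socs3-positive cells and 4.45 in 5090 negative cells, a log2 ratio of 1.25 [1.16 to 1.33]. Il7r, which is also 1 of the 9 resting genes, stood at 2.07 against 0.843 (log2 1.30) and Il6ra at 0.193 against 0.0275 (log2 2.81 [2.04 to 3.55], from 26 and 42 UMIs). Il2, the T cell growth factor, stood at 0.333 against 0.0642 (log2 2.38 [1.83 to 2.90]). Lower with Socs3 were Ptpn6 (SHP-1), a phosphatase that dampens receptor signals, at 1.504 against 2.22, and the activation receptor Tnfrsf9 (4-1BB), at 2.47 against 3.27.

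Non-cycling conventional CD4 cells with Socs3 also had more resting-cell transcripts, at 22.2 in 114 Socs3-positive cells against 10.2 in 739 negative cells (log2 1.12 [0.999 to 1.24]). Il7r stood at 5.50 against 2.94 and the survival gene Bcl2 at 3.22 against 1.90. Csf2, which encodes the effector cytokine GM-CSF, was lower, at 0.731 against 2.19 (log2 -1.58 [-2.23 to -1.01]), and so was Ifng (interferon-gamma), at 3.30 against 4.30. In non-cycling regulatory cells, 36 of them Socs3-positive, the resting-gene ratio was log2 0.40 [0.12 to 0.67]. Among cycling cells it was 0.90 [0.71 to 1.08] in CD8, 0.66 [0.37 to 0.94] in conventional CD4 and -0.26 [-0.90 to 0.33] in regulatory cells, the last from 14 Socs3-positive cells. Stress genes came to log2 0.26 [0.23 to 0.29] with Socs3 in non-cycling CD8 cells and 0.15 [0.09 to 0.20] in conventional CD4 cells, and their part in the Socs3 ratios was not tested.

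Socs1-positive cells carried more interferon-induced transcripts. In non-cycling CD8 cells the 12 interferon target genes summed to 15.4 in 1208 Socs1-positive cells and 11.3 in 4332 negative cells (log2 0.45 [0.41 to 0.50]). The chemokine Cxcl10 stood at 1.46 against 0.551 (log2 1.41), the GTPase Iigp1 at 0.533 against 0.219 (log2 1.28) and Usp18, itself an interferon feedback gene, at 1.12 against 0.486 (log2 1.21). The list came to log2 0.53 [0.40 to 0.67] in non-cycling regulatory cells and 0.49 [0.38 to 0.59] in non-cycling conventional CD4 cells. Among cycling cells it was 0.65 in regulatory, 0.43 in CD8 and 0.20 in conventional CD4 cells, and the interval of the last reached 0. Il2 went opposite ways: with Socs1 it stood at 1.68 against 0.396 (log2 2.09 [1.65 to 2.53]) in non-cycling conventional CD4 cells and at 0.0552 against 0.0946 (log2 -0.78 [-1.54 to -0.09]) in non-cycling CD8 cells.

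Cish went with more interleukin-2 receptor transcript (Il2ra) in non-cycling CD8 cells. It went with more effector cytokine transcripts in cycling CD8 and non-cycling conventional CD4 cells. In non-cycling CD8 cells Il2ra stood at 0.486 in 1386 Cish-positive cells and 0.226 in 4154 negative cells (log2 1.10 [0.83 to 1.37]). Tnfrsf4 (OX40), a costimulatory receptor, stood at 2.51 against 1.44. In cycling CD8 cells Il2 stood at 0.246 against 0.0277 (log2 3.15 [2.37 to 3.98], from 48 and 20 UMIs) and Csf2 at 0.276 against 0.0622 (log2 2.15 [1.55 to 2.76]). In non-cycling conventional CD4 cells with Cish, Ifng stood at 6.13 against 2.84 (log2 1.11 [0.93 to 1.29]) and Csf2 at 2.93 against 1.36 (log2 1.10 [0.84 to 1.36]). Il2 was lower there, at 0.396 against 0.938 (log2 -1.24 [-1.78 to -0.73]). The 10 STAT5 target genes summed to 30.6 against 24.8 in that gate (log2 0.30 [0.23 to 0.37]). Resting T cell genes were lower with Cish there, at 10.4 against 12.8 (log2 -0.29 [-0.40 to -0.18]), and in non-cycling CD8 cells (-0.18 [-0.26 to -0.11]). They were higher with Cish in cycling CD8 cells (0.19 [0.06 to 0.31]) and in regulatory cells, at 0.47 [0.19 to 0.74] in cycling and 0.24 [0.05 to 0.42] in non-cycling ones. In cycling conventional CD4 cells the interval held 0, at -0.18 [-0.40 to 0.04]. The direction for Cish thus differed between gates.

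Socs2-positive CD8 cells carried more Il2ra, Tnfrsf4 and Il7r. In the non-cycling CD8 gate Il2ra stood at 0.870 in 391 Socs2-positive cells and 0.247 in 5149 negative cells (log2 1.81 [1.48 to 2.13]). Maf, a transcription factor of helper and regulatory T cells, stood at 1.09 against 0.383 (log2 1.51 [1.22 to 1.79]), Tnfrsf4 at 4.15 against 1.52 (log2 1.45 [1.30 to 1.59]) and Il7r at 1.76 against 0.881 (log2 1.002). Cxcl10 was lower with Socs2, at 0.477 against 0.770, but higher in non-cycling regulatory cells, at 2.14 against 0.682. Over the whole gates, Tnfrsf4 stood at 22.5, 9.57 and 1.62 in non-cycling regulatory, conventional CD4 and CD8 cells, and Maf at 5.06, 2.66 and 0.390. Of the CD8-gated cells of this library, 7.58% had a Foxp3 UMI and 5.21% a Cd4 UMI, and the part of such cells in the Socs2 ratios was not tested.

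**Figure D5:**
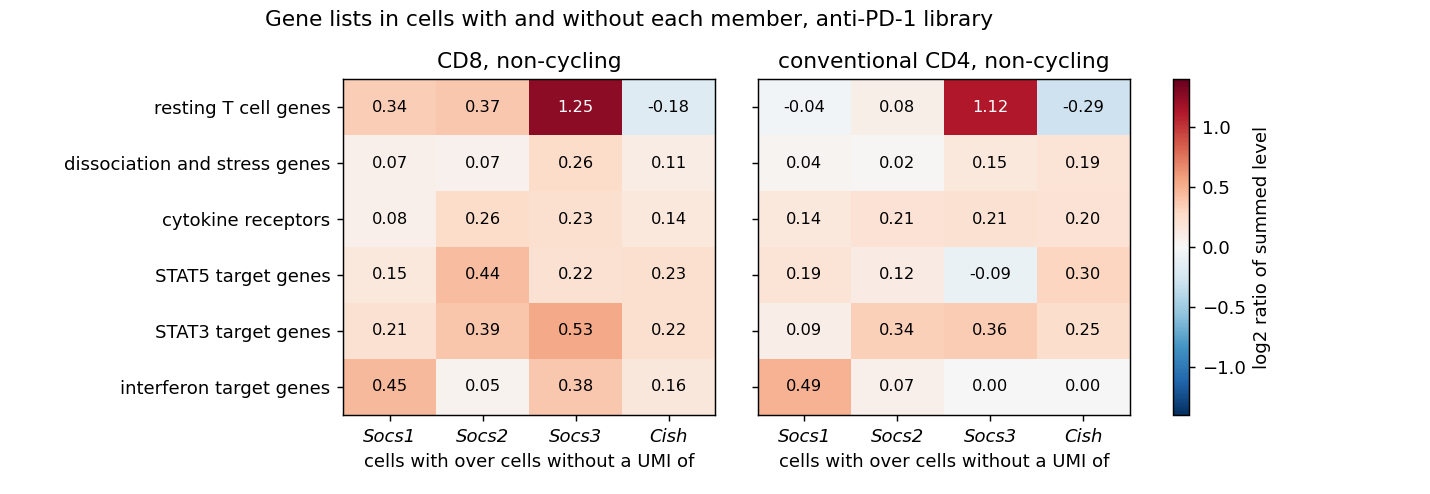
Log2 ratio of the summed level of 6 gene lists (lines) in cells with a UMI of each SOCS gene over cells without one (columns), in non-cycling CD8 and non-cycling conventional CD4 cells of the anti-PD-1 library thinned to 3000 UMIs; colour gives the ratio. In these gates resting T cell genes stand highest for Socs3 (1.25 and 1.12) and interferon target genes for Socs1 (0.45 and 0.49).

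Genes with the most similar pattern were sought by Pearson correlation of log2(level + 0.1) over 23 library by gate groups, each of 15 or more cells, among 2811 genes. The groups share libraries and differ in depth, and the values are descriptions. For Socs3 they were Rnf138 (0.83), 1110038F14Rik (0.82), the immediate early gene Fos (0.78), Tpt1 (0.76) and Ier5 (0.74). For Socs1 they included Slc50a1 (0.79), Il7r (0.74), the interferon-induced Isg15 (0.74) and Ctss (0.74). For Socs2 they were Rap1b (0.90), Izumo1r, the folate receptor of regulatory T cells (0.88), Cd2 (0.87), Itgb7 (0.87) and Tbrg1 (0.86). For Cish they were Nr3c1, the glucocorticoid receptor (0.93), Hif1a, the hypoxia factor (0.92), Ddx5 (0.89), Ubl3 (0.88) and Podnl1 (0.88). Among the 4 genes themselves, r was highest between Socs1 and Socs3, at 0.61, and lowest between Socs3 and Cish, at 0.16.

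The wider JAK-STAT pathway was set beside all genes in the comparisons with vehicle. Of 98 genes (other SOCS genes, ligase partners, cytokines, receptors, kinases, STAT factors, other inhibitors and STAT targets), 91 were in the table and 79 could be compared with vehicle in each treated library. At least 2-fold higher were 1 in the combination, 0 in ATT-I and 2 in anti-PD-1, and at least 2-fold lower 2, 7 and 11. Over all genes the shares were 1.23%, 0.967% and 1.44% higher and 3.82%, 8.82% and 11.9% lower. The pathway counts lay near those shares. Relative to the median gene, pathway genes past 2-fold either way numbered 2 rather than 7 in ATT-I and 7 rather than 13 in anti-PD-1. The median log2 ratio of the 79 genes was -0.09, -0.30 and -0.37, against -0.07, -0.22 and -0.24 over all genes. Of the 4 other SOCS genes only Socs5 was past 2-fold, lower at log2 -1.05 [-2.12 to -0.06] in ATT-I and -1.48 [-2.02 to -0.88] in anti-PD-1. None of the 4 ligase partners (Cul5, Rnf7, Elob and Eloc, which form the ubiquitin ligase with SOCS proteins) was past 2-fold in any comparison.

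Among cytokines, Ifng stood at 1.86 in the combination, 1.25 in ATT-I, 3.13 in anti-PD-1 and 1.04 in vehicle, and was past 2-fold in anti-PD-1 (log2 1.60 [1.44 to 1.76]). Socs1 was not, and a link between Ifng and Socs1 was not tested. Lta, which encodes lymphotoxin alpha, was past 2-fold in the combination, at 0.669 against 0.277 in vehicle. The repressor Bcl6 was lower than vehicle in ATT-I and anti-PD-1, at 0.0975 in the combination, 0.0347 in ATT-I, 0.0330 in anti-PD-1 and 0.132 in vehicle.

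Among kinases and STAT factors, Stat3 stood at 4.20 in the combination, 1.07 in ATT-I, 1.63 in anti-PD-1 and 2.41 in vehicle. Over all cells, ATT-I had the lowest Stat3 and the highest Socs3 transcript level. For Stat3 the combination stood at log2 1.97 [1.80 to 2.15] against ATT-I and 1.37 [1.30 to 1.43] against anti-PD-1. Il2ra stood at 1.46 in the combination, 0.493 in ATT-I, 0.520 in anti-PD-1 and 1.10 in vehicle, and Cish differed little. Links of Stat3 to Socs3 and of Il2ra to Cish were not tested. Against anti-PD-1, 11 of 78 pathway genes were at least 2-fold higher in the combination and 1 was lower, beside 8.38% and 2.56% of all genes. Against ATT-I 4 of the genes compared were higher and 1 was lower, beside 6.55% and 2.46% of all genes, so both shares lay below those of all genes. The 6 highest against anti-PD-1 were Lta (log2 1.73), Cxcl10 (1.65), Bcl6 (1.56), Stat5a (1.53), Il2ra (1.49) and Csf2 (1.41), and the 1 lower was Bcl2 (-1.10). These comparisons share libraries with those against vehicle and are not separate evidence.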

How the data were processed

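Droplet single-cell RNA counts of 4 libraries were read from 1 joined table. Cell Ranger, Seurat and build mm10 are named in the submitters' processing notes, without versions, and filters on cells are not given in the sources used here. The authors' deposited values are natural log values. By their steps they are the log of 1 plus UMIs per 10000, lowered by a constant per library (0.225 in the combination, 0.153 in ATT-I, 0.249 in anti-PD-1 and 0.247 in vehicle), with values under 0 set to 0. Undoing this gave UMIs within 0.02 of a whole number for 100% of non-zero values. The constant hides genes with 1 UMI in 37 combination, 0 ATT-I, 37 anti-PD-1 and 21 vehicle cells, which were kept. Of the barcodes, 1 is shared by 2 libraries. No doublet caller was run. No sample column was left unused.

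Listed genes summed to about 5150700 UMIs in the combination, 2876580 in ATT-I, 108509000 in anti-PD-1 and 3046030 in vehicle. CD8 cells had 2 or more Cd8a and Cd8b1 UMIs and over 3 times as many of them as Cd4 UMIs, and CD4 cells had a Cd4 UMI and no fewer Cd4 than Cd8a and Cd8b1 UMIs. Intervals are 95% and exact (Poisson for levels, conditional binomial for ratios). With 1 library an arm, no test was made, and no p-value is given. A gene was compared where 10% of the cells of either library had a UMI, and a library without any took a floor of 3 UMIs. Named pathway genes come from the 6 largest each way past 2-fold with 10 or more UMIs, co-detected genes from the 5 largest each way with 20 or more UMIs on both sides, and similar genes are the 5 with the highest r among genes with a mean level of 0.5 or more. The ratio step was checked on simulated data. The genes and lists were chosen with earlier results of these data known. Some genes that these rules name are not reported here. Promoters are RefSeq's on GRCm38.p6, matched by symbol. The tools were Python 3.11.15 with numpy 2.4.6, matplotlib 3.10.9, pandas 2.3.3 and scipy 1.17.1. Alternatives were the mean over cells, equal gate weights, thinning, other gates, filters and fold limits, and leaving out cells.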

Additional observations from a re-analysis of the deposited data

Results flagged for a closer look

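Socs3 in the combination against anti-PD-1 pointed in opposite directions in different T cell types. Among cycling cells the log2 ratio was 0.80 in CD8 cells and 0.83 in conventional CD4 cells, both higher in the combination. In cycling regulatory CD4 cells it was -1.76, lower in the combination. These values stand out because the same contrast changes sign between cell types. The regulatory value rests on 3 UMIs in 17 combination cells and 47 UMIs in 212 anti-PD-1 cells, and the difference between the cell types was not tested.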

How the results depend on the processing

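Values are log2 ratios over all cells unless said otherwise, and the cause of each shift was not tested. Socs3 stayed above vehicle under every alternative run, at 0.92 to 2.43 in the combination, 0.96 to 2.44 in ATT-I and 0.91 to 1.95 in anti-PD-1, while the ratio of the combination to ATT-I ran from -0.94 to 1.47 and to anti-PD-1 from -0.20 to 0.60. Of 162 alternative values for the 4 genes between libraries, 111 stayed within the counting interval and 51 did not. Limits are the 30 Socs3 UMIs of vehicle, the cells in which 1 UMI is hidden, the gates that depend on depth, and the single library of each arm. No paired analysis was possible because each arm is 1 library.

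Thinned to 3000 UMIs, the combination against vehicle was -0.42 for Cish, ATT-I was 1.10 for Socs2, and anti-PD-1 was 1.21 for Socs2 and -0.38 for Cish. With equal weight for each gate, the combination against vehicle was 0.23 for Socs1 and 2.21 for Socs3, ATT-I against vehicle was -0.31 for Socs1, -0.25 for Socs2 and -0.61 for Cish, the combination against anti-PD-1 was 0.19 for Cish, and set against ATT-I it was 0.23 for Socs1, -0.31 for Socs3 and 0.48 for Cish. As a mean over cells, anti-PD-1 against vehicle was -0.42 for Cish. Relative to the median gene, anti-PD-1 against vehicle was 0.38 for Socs1 and 0.0207 for Cish, and the combination against anti-PD-1 was -0.0940 for Cish. In cells without any other cell marker, which left no ATT-I cell, the combination against vehicle was -0.58 for Socs1 and -0.53 for Cish, anti-PD-1 was 1.61 for Socs2 and -0.45 for Cish, and the combination against anti-PD-1 was -0.70 for Socs1, -1.28 for Socs2 and 0.20 for Socs3.

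Without the cells in which 1 UMI is hidden, anti-PD-1 against vehicle was -0.0917 for Socs1, 0.38 for Socs2 and -0.37 for Cish. The combination against anti-PD-1 was then -0.0798, -0.34, 0.20 and 0.24 for Socs1, Socs2, Socs3 and Cish, and against ATT-I 0.0570 for Socs1 and 0.0664 for Socs2. The next 3 alternatives were chosen after seeing the data, as was leaving out the cell richest in each gene, which moved none of the 20 ratios past its counting interval. In cells without other cell markers, haemoglobin aside, the combination against vehicle was 0.41 for Socs2 and -0.54 for Cish, ATT-I was 2.001 for Socs2, and anti-PD-1 was 1.69 for Socs2 and -0.48 for Cish. The combination against anti-PD-1 was then -0.66, -1.27 and 0.25 for Socs1, Socs2 and Socs3, and against ATT-I -0.57, -1.59, -0.23 and -0.25 for Socs1, Socs2, Socs3 and Cish. In thinned cells without a resting-gene UMI, Socs3 was 2.43 in the combination and 0.96 in ATT-I against vehicle, and the combination stood at 0.60 to anti-PD-1 and at 1.47 to ATT-I, with 7, 2, 269 and 1 UMIs in the combination, ATT-I, anti-PD-1 and vehicle. In cells at or under the vehicle median of stress genes, Socs3 was 0.92 in the combination and 0.91 in anti-PD-1 against vehicle.

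JAK-STAT genes past 2-fold numbered 3 in the combination, 7 in ATT-I and 13 in anti-PD-1 against vehicle, with 12 for the combination over anti-PD-1 and 5 for it over ATT-I. Past 1.5-fold these became 18, 19, 28, 25 and 25. Without a filter beyond 3 UMIs, they were 9, 11 and 23 against vehicle and 12 in the combination against ATT-I. Relative to the median gene they were 2 in ATT-I and 7 in anti-PD-1, as a mean over cells 5 in the combination against vehicle, and without the cells with hidden UMIs, chosen for these counts after seeing the data, 11 in ATT-I against vehicle and 11 in the combination against ATT-I.

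In the anti-PD-1 library, with any UMI of 1 coreceptor as the gate, regulatory over conventional non-cycling cells were -0.12 for Socs1 and -0.12 for Cish, and conventional CD4 over CD8 non-cycling cells 0.63 for Socs1. Cycling over non-cycling CD8 cells were then -0.38 for Socs2, -1.16 for Socs3 and -0.55 for Cish. Cycling from 3 Mki67 UMIs gave -0.81 for Socs1 and -0.58 for Cish, and thinning -0.25 for Cish, in CD8 cells.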
